A study of Homo sapiens with 28 samples.

Results

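FOLH1, CD276, PSCA, TMEFF2 and EPCAM encode cell surface proteins that are used or tested as targets of antibodies, radioligands or engineered immune cells in prostate cancer. They were chosen by gene symbol from the count table and are 5 of its 61815 genes. No threshold on a measured value defined the set, but it was proposed with results of these data known, and which levels or fold changes were in view is not recorded. The adjusted p-values below therefore describe these libraries and are not independent support for the choice. All 5 genes passed the filter on low counts in both experiments, PSCA at the lowest level.

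LNCaP, an androgen-responsive human prostate cancer cell line, was deprived of androgen for 72 h in medium with charcoal-stripped serum, and all 28 libraries share that pretreatment. The vehicle was 0.1% DMSO, and the labels name no solvent for the treated groups. In the first experiment the cells then received vehicle, 1 µM Senexin B, 0.1 nM of the synthetic androgen R1881, or R1881 with Senexin B for 24 h (n = 3 per group). In the second they received vehicle, 500 nM SNX631, 1 nM R1881, or R1881 with SNX631 for 72 h (n = 4 per group). Senexin B and SNX631 inhibit the Mediator kinases CDK8 and CDK19, which act on transcription. Time, androgen dose, inhibitor and inhibitor dose all differed between the experiments and cannot be told apart, so the inhibitors are given side by side and were not compared with each other. For Senexin B the dose is the one in the labels, and the study's own text names a different dose. All groups are 1 unedited cell line in culture, and the p-values rest on the spread between these libraries alone.

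FOLH1, better known as PSMA, is a membrane carboxypeptidase that releases glutamate from folates and from a brain dipeptide, and it is the target of prostate imaging agents and radioligands. TMEFF2 is a transmembrane protein with follistatin-like and EGF-like domains, and PSCA is a small protein of the Ly6 family held by a GPI anchor. CD276, or B7-H3, belongs to the B7 family of immune checkpoint ligands, and EPCAM is an epithelial adhesion molecule that can be cleaved at the membrane. In luminal prostate cells androgen is known to act on several of these genes, and androgen blockade is known to raise PSMA.

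The libraries held 9846595 to 33809419 counts, with a median of 12230506. Vehicle replicate 3 of the 24 h experiment was the deepest, and the next library held 15248512. Defining luminal markers were present in every library, with KRT8 at 451 to 1000 CPM (the count scaled to the effective library size) and HOXB13 at 305 to 471 CPM, while the basal marker KRT5, the T cell marker CD3E and the neuroendocrine marker INSM1 had no count in any of the 28. COL1A1 was the highest of the fibroblast markers at 7.44 to 30.9 CPM, and the endothelial marker VWF reached 4.50 CPM. The androgen labels were checked with KLK3, which averaged 1.45 CPM in vehicle and 112 CPM with R1881 at 24 h, and 1.42 and 137 CPM at 72 h. TMPRSS2 averaged 14.9 and 194 CPM at 24 h, and 15.1 and 260 CPM at 72 h.

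One copy of FOLH1 bears on how its counts are read. FOLH1B is a transcribed pseudogene on the other arm of chromosome 11, and over 2132 aligned bases its longest annotated transcript was 98.7% identical to the FOLH1 coding sequence. The stretch below is shown because, among windows of 60 bases within 1 exon of each gene, it held the most differences (3), which are in capitals. FOLH1 is read on the minus strand at chr11:49200297-49200356, coding bases 310 to 369, in exon 3. FOLH1B is read on the plus strand at chr11:89645088-89645147 (both GRCh38, GENCODE 29).
FOLH1: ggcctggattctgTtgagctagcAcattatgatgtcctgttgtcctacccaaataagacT
FOLH1B: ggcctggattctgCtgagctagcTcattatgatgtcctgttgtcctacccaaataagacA
The counts assigned to FOLH1B were 0.135% to 0.47% of those assigned to FOLH1 in the same library. How reads that match both copies were counted is not given in the sources used here.

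The 5 genes lay at very different levels. Per kilobase of annotated exons, the group means were 181 to 388 CPM for FOLH1, 65.2 to 87.7 for EPCAM, 44.2 to 63.3 for CD276, 3.60 to 16 for TMEFF2 and 0.985 to 1.89 for PSCA. FOLH1 was thus the most abundant in every group and PSCA the least. PSCA rested on only 17 to 97 counts per library, against 238 to 1519 for TMEFF2 and at least 1732 for the other 3 genes. The ratio of the highest to the lowest group mean was 4.45 for TMEFF2, 2.15 for FOLH1, 1.92 for PSCA, 1.43 for CD276 and 1.34 for EPCAM.

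**Figure D1:**
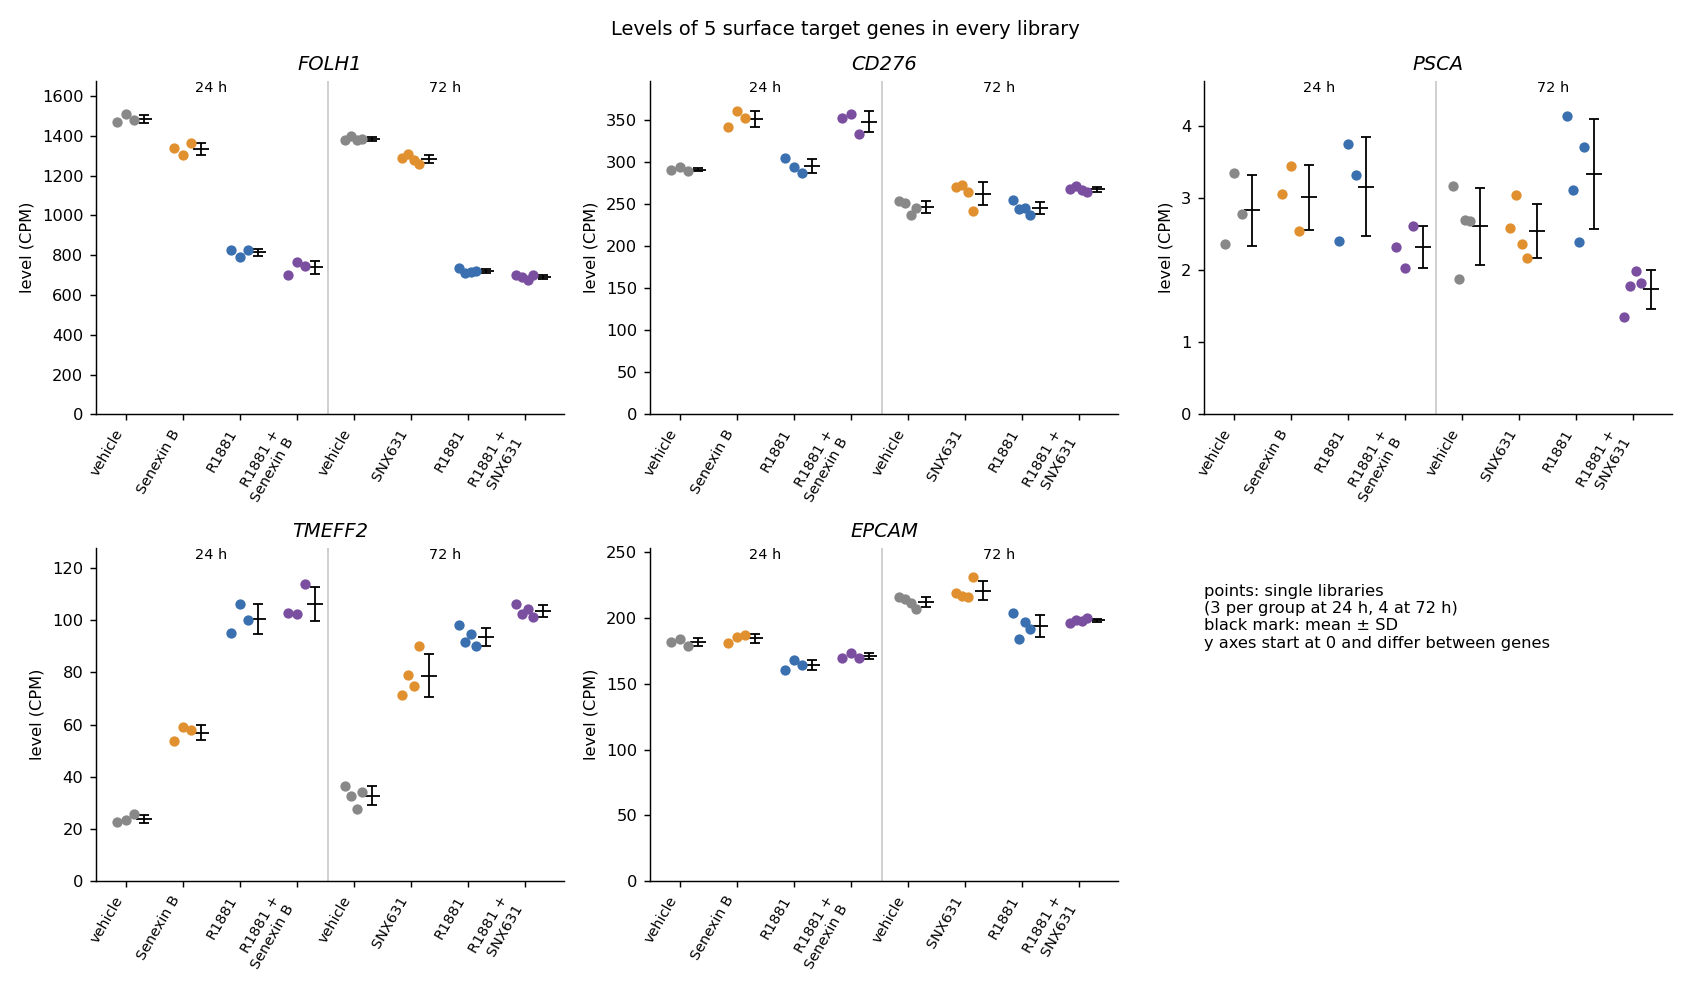
Level of each gene in CPM (y axes start at 0 and differ between panels) in every library of the 8 groups, with the mean ± SD of each group in black. TMEFF2 is lowest in both vehicle groups (23.9 and 32.7 CPM) and FOLH1 falls into a high band without R1881 and a low band with it, while the PSCA points of most groups overlap.

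A gene was called when edgeR's quasi-likelihood test gave a Benjamini-Hochberg adjusted p under 0.01 over all genes tested and the fold change was over 1.5, the limits the study used. With R1881 alone, FOLH1 fell and TMEFF2 rose in both experiments. That is 2 of 5 genes called at 24 h, where 19% of all 15948 genes tested were called, and 2 of 5 at 72 h, where 19.8% of 16074 were. EPCAM also passed the limit on adjusted p in both, with changes far below the fold limit. Disregarding the fold limit, 3 of 5 genes passed in each experiment, against 48.4% and 52.2% of all genes, and both shares lie near that background. The median log2 fold change of the 5 genes was 0.018 at 24 h and -0.018 at 72 h, beside -0.016 and -0.014 over all genes tested.

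FOLH1 (ENSG00000086205.18, chr11:49146635-49208670 on GRCh38, minus strand) measured 1467, 1509 and 1479 CPM in vehicle at 24 h and 823, 793 and 825 CPM with R1881. At 72 h the vehicle libraries held 1379, 1401, 1376 and 1383 CPM and the R1881 libraries 737, 710, 715 and 721. Every R1881 library lay below every vehicle library by a wide gap. The fall was 1.83-fold at 24 h (log2 fold change -0.87 ± 0.032 SE, adjusted p = 3.25e-21) and 1.93-fold at 72 h (-0.95 ± 0.019, adjusted p = 1.95e-32). Its absolute change was greater than that of 87% of genes tested at 24 h and 88.4% at 72 h.

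The androgen effect on FOLH1 was nearly the same size with a kinase inhibitor present. With Senexin B in the medium of both groups, FOLH1 measured 1337, 1303 and 1362 CPM without R1881 and 702, 765 and 747 CPM with it (-0.86 ± 0.032, adjusted p = 5.89e-21). With SNX631 it measured 1289, 1307, 1277 and 1257 CPM without R1881 and 701, 690, 674 and 698 CPM with it (-0.91 ± 0.019, adjusted p = 5.96e-32). The interaction, which is the androgen effect with the inhibitor minus the effect without it, was 0.014 at 24 h (95% interval -0.079 to 0.107, adjusted p = 0.93) and 0.042 at 72 h (-0.014 to 0.097, adjusted p = 0.373) on the log2 scale.

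Either inhibitor given without androgen was followed by slightly less FOLH1. The log2 fold change was -0.16 ± 0.032 with Senexin B (adjusted p = 1.94e-04) and -0.11 ± 0.019 with SNX631 (adjusted p = 6.13e-06), and the groups did not overlap in either experiment. With R1881 present the values were -0.14 ± 0.033 (adjusted p = 9.7e-04) and -0.073 ± 0.020 (adjusted p = 0.00258). All 4 changes passed the limit on adjusted p and none reached the fold limit. The lowest mean of the 8 groups was 691 CPM in R1881 with SNX631, next to 721 CPM in R1881 alone at 72 h, and these neighbours did not overlap. R1881 alone at 72 h overlapped with R1881 plus Senexin B at 24 h (738 CPM).

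Against vehicle, TMEFF2 (ENSG00000144339.12, chr2:191949043-192195709, minus strand) changed more than any of the other 4 genes with R1881 and with each kinase inhibitor. It was the 1 gene of the set that rose with each of these agents given alone. At 24 h it measured 22.6, 23.4 and 25.6 CPM in vehicle and 94.96, 106.3 and 100.2 CPM with R1881. At 72 h it measured 36.4, 32.7, 27.7 and 34.0 CPM in vehicle and 98.1, 91.8, 94.8 and 90.3 CPM with R1881. No vehicle library came near an R1881 library. The rise was 4.11-fold at 24 h (2.04 ± 0.060 log2, adjusted p = 2.53e-24) and 2.85-fold at 72 h (1.51 ± 0.061, adjusted p = 3.39e-23), greater in absolute size than for 96.9% and 95% of genes tested.

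Senexin B without androgen brought TMEFF2 to 53.5, 59.1 and 58.0 CPM, and SNX631 brought it to 71.2, 78.8, 75.0 and 90.1 CPM. Each of these libraries lay above every vehicle library of its experiment and below every library that had received R1881, though the highest SNX631 library came close to the lowest R1881 library (90.3 CPM). Against vehicle, the rise was 2.32-fold with Senexin B (1.22 ± 0.063, adjusted p = 3.19e-16) and 2.40-fold with SNX631 (1.26 ± 0.062, adjusted p = 2.18e-19). TMEFF2 was the 1 gene of 5 called for each inhibitor, where 3.79% of all genes were called for Senexin B and 4.77% for SNX631, and its absolute change exceeded that of 99.1% of genes in both. These contrasts share their vehicle libraries with the R1881 contrasts of the same experiment.

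The changes did not add up when androgen and inhibitor were combined. R1881 with Senexin B gave 103, 102 and 114 CPM, and R1881 with SNX631 gave 106, 102, 104 and 101 CPM. These levels were close to those of R1881 alone, with log2 differences of 0.082 (95% interval -0.019 to 0.183, adjusted p = 0.211) at 24 h and 0.13 (0.036 to 0.230, adjusted p = 0.0224) at 72 h. At 72 h every combination library nevertheless lay above every R1881 library, while at 24 h the groups overlapped. Measured from the inhibitor-treated cells, R1881 raised TMEFF2 1.87-fold with Senexin B (0.91 ± 0.053, adjusted p = 5.42e-16) and 1.3-fold with SNX631 (0.38 ± 0.049, adjusted p = 1.06e-08), the latter under the fold limit.

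The interaction for TMEFF2 was -1.13 ± 0.080 at 24 h (adjusted p = 2.05e-11) and -1.13 ± 0.078 at 72 h (adjusted p = 1.11e-13). It was the 1 gene of 5 called in each, against 0.577% of all genes at 24 h and 1.19% at 72 h. Both calls held without any single library and under each other setting tried. The order of the 8 group means ran from vehicle at 24 h (23.9 ± 1.58 CPM, SD, n = 3) through vehicle at 72 h (32.7 ± 3.64, n = 4), Senexin B (56.9 ± 2.94, n = 3), SNX631 (78.8 ± 8.19, n = 4) and R1881 at 72 h (93.8 ± 3.46, n = 4), and none of these neighbours overlapped. The top 4 groups, R1881 at 72 h and at 24 h and both combinations, each overlapped with the next in the order, with means of 93.8 to 106 CPM.

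**Figure D2:**
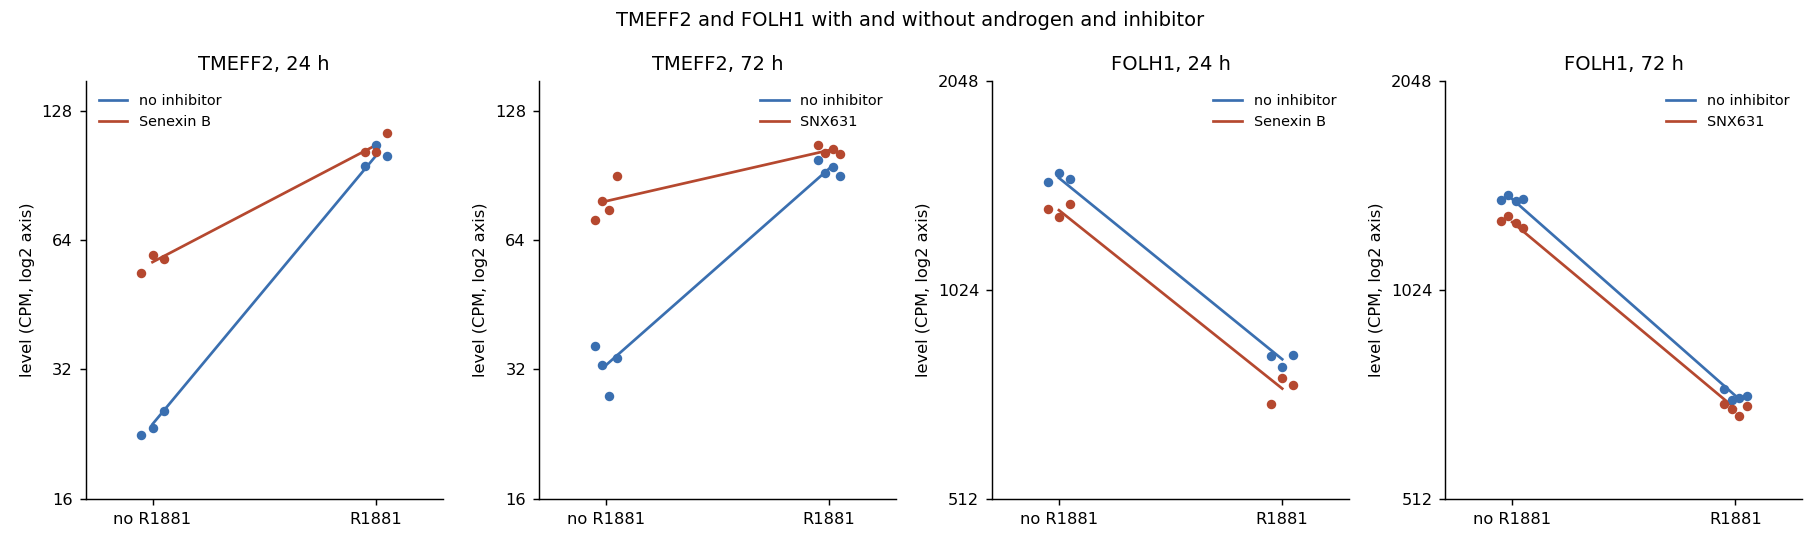
Level of TMEFF2 and FOLH1 in CPM (log2 axis) without and with R1881, in cells with no inhibitor (blue) or with Senexin B or SNX631 (red). Points are libraries and lines join group means. The TMEFF2 lines start 2.32-fold and 2.40-fold apart and nearly meet with R1881, whereas the FOLH1 lines run almost parallel.

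The androgen rise of TMEFF2 was smaller in the 72 h experiment than in the 24 h one, by 0.53 ± 0.094 log2 units in a fit of all 28 libraries (adjusted p = 5.28e-05). This difference stayed under the fold limit, so 0 of 5 genes were called by edgeR, where 1.88% of 16672 genes were called. Of the 5 genes, 2 had an unadjusted p under 0.05, and DESeq2 also called 0. It passed the fold limit without vehicle replicate 3 of either experiment (0.61 and 0.60 log2 units). The vehicle mean itself was higher at 72 h, and dose and time cannot be told apart here. For FOLH1 the same difference was -0.074 ± 0.035 (adjusted p = 0.165).

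An antisense gene, CAVIN2-AS1, overlaps TMEFF2 on the plus strand. It had 0 to 3 counts in any library, too few for a test.

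PSCA (ENSG00000167653.5, chr8:142670308-142682724, plus strand) changed in 1 comparison, SNX631 added to R1881. In the R1881 libraries at 72 h it measured 4.15, 3.11, 2.39 and 3.72 CPM, from 40, 38, 27 and 43 counts. In the libraries with both agents it measured 1.35, 1.78, 1.99 and 1.82 CPM, from 17, 25, 29 and 25 counts. The groups did not overlap, although R1881 replicate 3 and replicate 3 of the combination came close (2.39 and 1.99 CPM). The fall was 1.90-fold (-0.93 ± 0.196, adjusted p = 1.35e-04), and PSCA was the 1 gene of 5 called, against 4.12% of all genes tested. It was called without any single library (-1.06 to -0.82), and with a minimum count of 50 it was not tested.

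Elsewhere the PSCA groups were hard to tell apart at this depth. SNX631 without androgen left it at 2.59, 3.04, 2.37 and 2.18 CPM, against 3.17, 1.88, 2.7 and 2.69 CPM in vehicle (-0.025 ± 0.188, adjusted p = 0.937). R1881 alone gave 0.35 ± 0.18 at 72 h (95% interval -0.022 to 0.715, adjusted p = 0.0942) and 0.15 ± 0.19 at 24 h (-0.235 to 0.539, adjusted p = 0.509). R1881 in the presence of SNX631 gave -0.56 ± 0.20 (adjusted p = 0.0142), with no overlap of the groups. The interaction at 72 h was -0.90 ± 0.27 (adjusted p = 0.0208), which missed the limit with all libraries and passed it (-1.03, adjusted p = 0.00771) without R1881 replicate 3, the lowest library of its group.

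At 24 h the PSCA libraries measured 2.37, 3.35 and 2.78 CPM in vehicle, 3.05, 3.45 and 2.54 with Senexin B, 2.41, 3.75 and 3.32 with R1881, and 2.32, 2.03 and 2.61 with both. The groups R1881 and R1881 with Senexin B overlapped. Senexin B added to R1881 gave -0.44 ± 0.22 (95% interval -0.889 to 0.007, adjusted p = 0.121), and the interaction was -0.52 ± 0.29 (-1.10 to 0.071, adjusted p = 0.381). Both intervals include no change, and both reach to falls well past the fold limit.

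The annotated span of PSCA overlaps that of JRK on the opposite strand, and whether their exons overlap was not examined. The library kit keeps strand, but the strand setting of the counting is not given in the sources used here. Reads from any shared exon part may therefore not be told apart. JRK lay at 26.8 to 39.7 CPM, well above PSCA. With SNX631 added to R1881, JRK changed by -0.16 ± 0.064 (adjusted p = 0.0486). With R1881 in the presence of SNX631, JRK changed by -0.26 ± 0.062 (adjusted p = 4.37e-04), which passed the limit on adjusted p but not on fold. The part of JRK in the PSCA values was not tested.

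CD276 (ENSG00000103855.18, chr15:73683966-73714518, plus strand) differed with Senexin B, and with SNX631 in the presence of R1881, by amounts below the fold limit. No androgen contrast of CD276 passed the limit on adjusted p in the main fits. At 24 h it measured 290, 293 and 289 CPM in vehicle and 341, 360 and 352 CPM with Senexin B. With R1881 it measured 304, 293 and 287 CPM, and with both agents 353, 357 and 333 CPM. Every library with Senexin B lay above every library without it. The difference was 1.2-fold without androgen (0.27 ± 0.033, adjusted p = 1.17e-07) and 1.18-fold with R1881 (0.23 ± 0.034, adjusted p = 2.46e-06).

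At 72 h the CD276 differences with SNX631 stayed below the fold limit. Vehicle libraries held 253, 251, 236 and 246 CPM and SNX631 libraries 270, 272, 264 and 242, which overlapped (0.084 ± 0.029, adjusted p = 0.0225). With R1881 the levels were 254, 244, 245 and 237 CPM alone and 268, 272, 266 and 265 CPM with SNX631, which did not overlap (0.12 ± 0.029, adjusted p = 0.00126). The change with R1881 alone was 0.018 ± 0.034 at 24 h (95% interval -0.051 to 0.086) and -0.018 ± 0.030 at 72 h (-0.078 to 0.043), and at 24 h its sign turned when library totals alone set the scale.

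EPCAM (ENSG00000119888.11, chr2:47345158-47387601, plus strand) was the most even of the 5. At 24 h it measured 182, 184 and 179 CPM in vehicle, 181, 186 and 188 CPM with Senexin B, 161, 168 and 164 CPM with R1881, and 170, 174 and 170 CPM with both. At 72 h the vehicle libraries held 216, 214, 211 and 207 CPM, SNX631 220, 217, 216 and 231, R1881 204, 184, 197 and 192, and both agents 197, 199, 198 and 200. Each R1881 group lay below its vehicle group with no overlap. The log2 change with R1881 was -0.15 ± 0.034 at 24 h (adjusted p = 3.94e-04) and -0.14 ± 0.029 at 72 h (adjusted p = 1.11e-04), each a 1.1-fold difference below the fold limit.

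The androgen difference in EPCAM was also measured with an inhibitor present, at -0.11 ± 0.034 with Senexin B (adjusted p = 0.00564) and -0.17 ± 0.028 with SNX631 (adjusted p = 2.14e-06). Against vehicle, the inhibitors themselves gave 0.023 (95% interval -0.044 to 0.089) for Senexin B and 0.055 (-0.003 to 0.112) for SNX631. All 4 EPCAM means at 72 h were higher than all 4 at 24 h, though R1881 at 72 h (194 CPM) overlapped with Senexin B at 24 h (185 CPM).

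**Figure D3:**
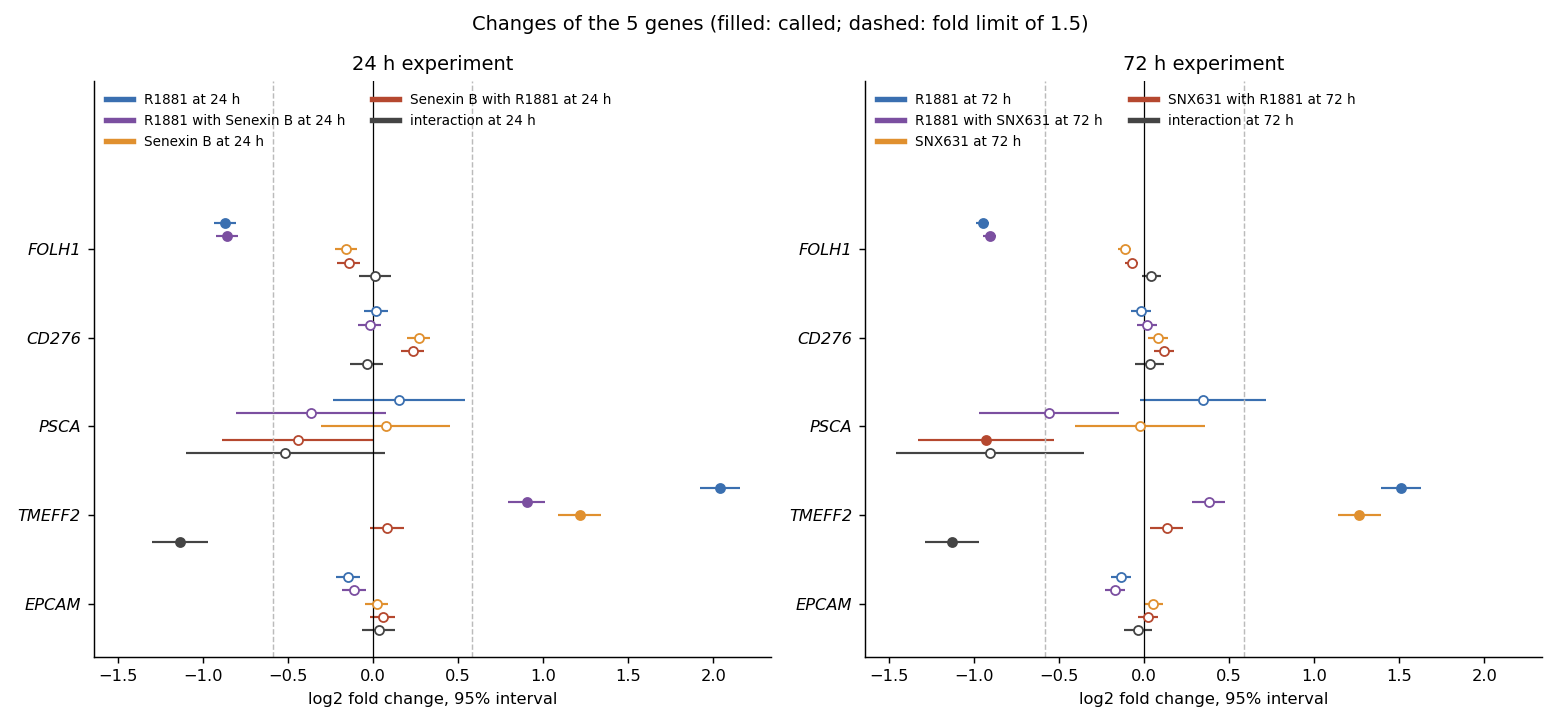
Log2 fold change with its 95% interval for the 5 genes in the 5 contrasts of each experiment. Filled points were called, and dashed lines mark a fold of 1.5. FOLH1 moves with R1881 and TMEFF2 with either agent, PSCA has the widest intervals, and CD276 and EPCAM stay inside the dashed lines.

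Not every gene that stood apart from its control group was called. With the fold limit set aside, 3 of 5 genes passed for R1881 with Senexin B (47.5% of all genes), 3 for Senexin B (25.1%), 2 for Senexin B with R1881 (22.7%), 3 for R1881 with SNX631 (57.3%), 2 for SNX631 (26.9%) and 3 for SNX631 with R1881 (33.1%). Groups that did not overlap were found for 3 of 5 genes with R1881 at 24 h (62% of all genes), 3 with R1881 in Senexin B (62.2%), 3 with Senexin B (45.6%), 3 with Senexin B in R1881 (42%), 3 with R1881 at 72 h (54.8%), 4 with R1881 in SNX631 (57.8%), 3 with SNX631 (33%) and 4 with SNX631 in R1881 (37.8%). EPCAM was among the non-overlapping genes in 6 of these 8 comparisons without being called in any, and FOLH1 was among them in all 8. For EPCAM these include Senexin B with R1881 (adjusted p = 0.222) and SNX631 (adjusted p = 0.132), which also missed the limit on adjusted p. With SNX631 the nearest EPCAM libraries lay at 215.75 CPM, against 215.71 CPM in vehicle.

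By both limits, 2 of the 5 genes (FOLH1 and TMEFF2) were called for R1881 in the presence of Senexin B, against 18.9% of all genes, and 1 (FOLH1) for R1881 in the presence of SNX631, against 22%. For Senexin B added to R1881, edgeR called 0 of 5, where 3.12% of all genes were called. In that comparison 2 of 5 genes had an unadjusted p under 0.05, and DESeq2 called 0.

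**Figure D4:**
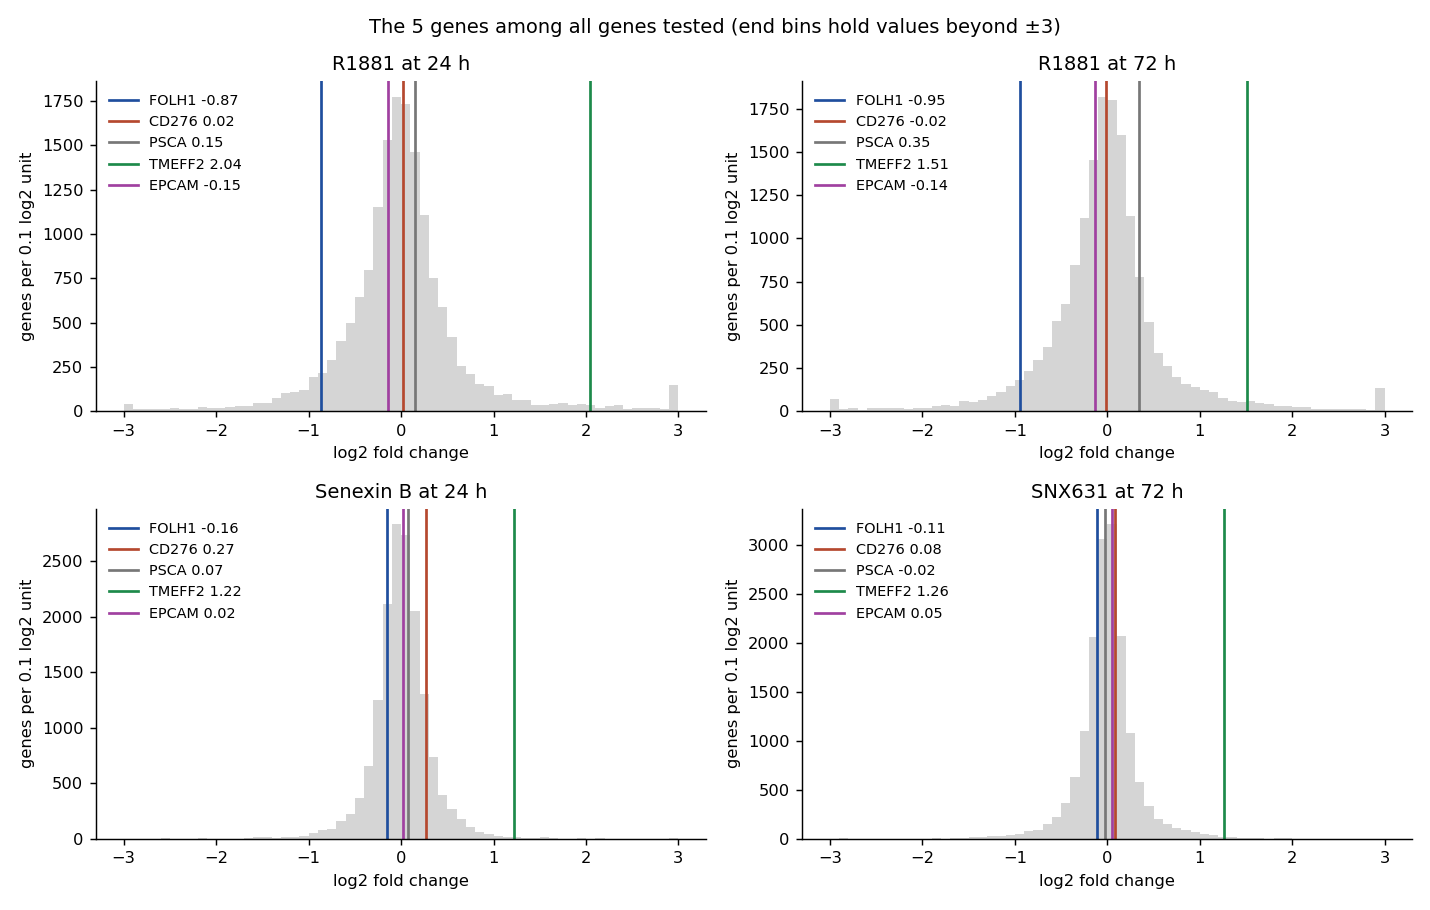
Distribution of log2 fold changes over all genes tested (grey bars, genes per 0.1 log2 unit, end bars holding values beyond ±3) for R1881 and for each inhibitor against vehicle, with the 5 genes as coloured lines. TMEFF2 lies in the right tail of all 4 panels (2.04, 1.51, 1.22 and 1.26), FOLH1 in the left part of both R1881 panels, and the other 3 near the centre.

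Over the 28 libraries, each library's log2 CPM was set against the mean of the vehicle libraries of its experiment, and the genes most like each of the 5 were sought among 13984 genes. The libraries share 8 groups, so the Pearson r describes which groups are high and low and is given with no p. FOLH1 was nearest to RIMS1 (r = 0.995), SI (0.992) and DENND1B (0.991), and 5.25% of genes had an r over 0.9 with it. TMEFF2 was nearest to MCM2, a subunit of the replicative helicase (0.959), CEP128, a centriole protein (0.956), and RAN, the GTPase of nuclear transport (0.954), with 1.6% of genes over 0.9.

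EPCAM was nearest to KLHL32 (0.934), EIF3H (0.923) and LGALS8 (0.921), and RPL4 (0.9) and AMZ2 (0.89) were among the nearest to CD276. PSCA had no gene over 0.9, the nearest being SSR2 (0.72), SRSF5 (0.698) and EVI5 (0.69). Among the 5 themselves, the r was 0.829 for FOLH1 with EPCAM and -0.819 for FOLH1 with TMEFF2, while PSCA lay between -0.289 and 0.182 with the other 4.

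Families and partners of the 5 genes were listed next, 86 genes in all, of which 53 were tested. For R1881 alone, 16 of them were called at 24 h (7 higher, 9 lower, 30.2%) and 15 at 72 h (5 higher, 10 lower, 28.3%), beside 19% and 19.8% of all genes. Their median log2 fold change was -0.0002 and 0.009, beside -0.016 and -0.014 over all genes. Of the 53, 5 were called for Senexin B (9.43%, beside 3.79% of all genes) and 6 for SNX631 (11.3%, beside 4.77%). No interaction was called for them by edgeR or DESeq2 in either experiment, with 14 and 17 at an unadjusted p under 0.05.

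Of 24 other surface proteins used as targets in cancer, 19 were tested, and R1881 was followed by calls of 3 higher and 5 lower at 24 h, and 2 higher and 5 lower at 72 h. The receptor tyrosine kinase MET fell with R1881 from 2.17 to 0.543 CPM at 24 h (-2.05 ± 0.37, adjusted p = 1.16e-06) and from 3.39 to 0.652 CPM at 72 h (-2.38 ± 0.27, adjusted p = 2.22e-11). Both inhibitors raised MET without androgen, to 5.04 CPM with Senexin B (1.16 ± 0.18, adjusted p = 4.51e-06) and to 7.41 CPM with SNX631 (1.12 ± 0.13, adjusted p = 7.03e-09), so it was called in opposite directions for androgen and inhibitor. EPHA2, an ephrin receptor, fell with R1881 by 1.34 ± 0.22 and 1.04 ± 0.19 on the log2 scale (adjusted p = 1.13e-06 and 4.8e-06). IL1RAP, a chain of the interleukin 1 receptor, fell with Senexin B (-0.70 ± 0.088, adjusted p = 1.34e-07) and with SNX631 (-0.73 ± 0.089, adjusted p = 1.25e-08).

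In the B7 family, to which CD276 belongs, 3 of 9 genes were tested: CD274, NCR3LG1 and ICOSLG. With R1881 alone their log2 values were 0.17, 0.04 and 0.72 at 24 h (adjusted p = 0.348, 0.686 and 0.123) and 0.09, -0.31 and 0.47 at 72 h, where NCR3LG1 passed the limit on adjusted p (1.92e-04) but not on fold. CD274, the checkpoint ligand PD-L1, fell with SNX631 from 2.56 to 1.33 CPM (-0.94 ± 0.25, adjusted p = 0.00189), and with SNX631 added to R1881 from 2.73 to 1.52 CPM (-0.85 ± 0.23, adjusted p = 0.00244). With Senexin B at 24 h it was -0.20 ± 0.15 (adjusted p = 0.335). NCR3LG1, or B7-H6, a ligand of natural killer cells, rose with Senexin B from 23.1 to 40.8 CPM (0.80 ± 0.067, adjusted p = 4.43e-11).

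Among 15 relatives of FOLH1 and genes of folate handling, 10 were tested, and with R1881 1 was called higher and 1 lower at 24 h and 2 lower at 72 h. NAALAD2, a carboxypeptidase of the same family as FOLH1, fell with R1881 from 5.99 to 2.99 CPM at 24 h (-1.01 ± 0.165, adjusted p = 1.67e-06) and from 8.94 to 3.10 CPM at 72 h (-1.52 ± 0.154, adjusted p = 1.11e-11). FOLH1B fell from 5.64 to 3.15 CPM at 72 h (-0.84 ± 0.161, adjusted p = 1.64e-05), and its sequence is so close to that of FOLH1 that reads of the 2 genes may not be told apart. The reduced folate carrier SLC19A1 rose at 24 h (0.64 ± 0.047, adjusted p = 1.94e-13). GGH, which trims glutamates from folates in lysosomes, rose with SNX631 from 18.4 to 36.0 CPM (0.97 ± 0.065, adjusted p = 3.01e-15). GGH was not called for Senexin B, with or without R1881, nor for SNX631 added to R1881.

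Of 17 Ly6 and uPAR family genes related to PSCA, 7 were tested. With R1881, 1 was called higher and 2 lower at 24 h, and 0 higher and 2 lower at 72 h. CD177 fell with R1881 at 24 h (-2.08 ± 0.49, adjusted p = 6.72e-05), as did LYPD6B (-1.31 ± 0.32, adjusted p = 3.18e-04), while LYPD6 rose (0.92 ± 0.24, adjusted p = 0.00148). All 3 lay at or below 2.68 CPM in every group mean. The rise of LYPD6 was not called at 72 h. LYPD6B also fell with SNX631 (-1.37 ± 0.36, adjusted p = 0.00119), the same direction as with R1881.

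Partners of EPCAM at the membrane, its proteases and their inhibitors made a list of 15, of which 12 were tested. With R1881, 3 were called higher at 24 h and 4 at 72 h. The tetraspanin CD9 rose from 278 to 482 CPM at 24 h (0.79 ± 0.033, adjusted p = 1.15e-19) and from 220 to 443 CPM at 72 h (1.00 ± 0.026, adjusted p = 2.93e-29), and PSEN2, a catalytic subunit of gamma-secretase, rose at 72 h (0.67 ± 0.060, adjusted p = 2.06e-12). Of 8 genes tied to TMEFF2 4 were tested, and the receptor ERBB4, which binds EGF-like ligands, fell with R1881 from 3.44 to 0.864 CPM at 24 h (-1.98 ± 0.28, adjusted p = 2.94e-08) and from 2.95 to 0.403 CPM at 72 h (-2.86 ± 0.35, adjusted p = 2.16e-11).

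**Figure D5:**
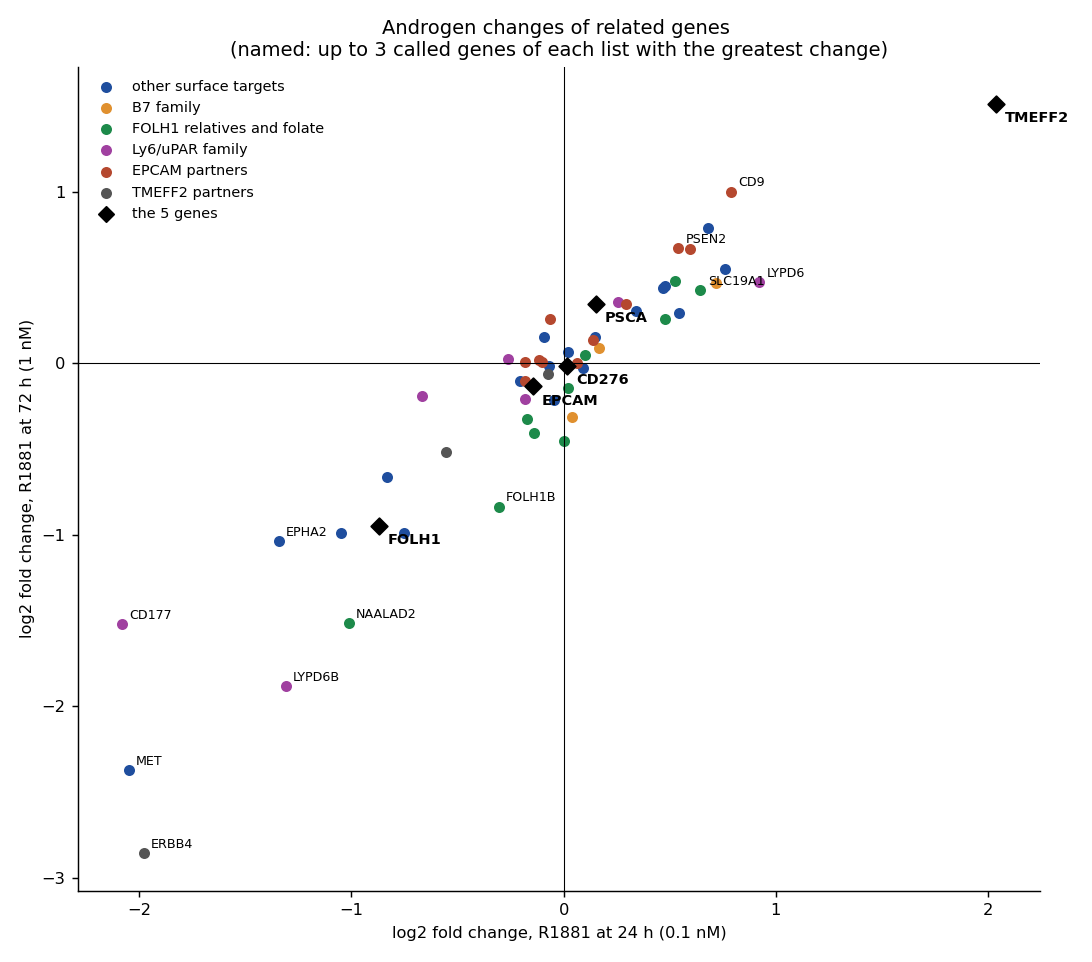
Log2 fold change with R1881 at 24 h (x axis) and at 72 h (y axis) for the 5 genes (black diamonds) and related genes tested in both experiments, coloured by list. Among the plotted genes TMEFF2 has the largest rise on both axes (2.04 and 1.51). MET, ERBB4, CD177, EPHA2 and LYPD6B are among the larger falls at 24 h, and FOLH1 lies nearer the middle at -0.87 and -0.95.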

How the data were processed

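Total RNA libraries from a directional kit were sequenced from 28 LNCaP cultures in 8 groups. The authors deposited 1 table of expected counts per gene, in which 16.9% of the values above 0 have a fractional part. Their processing notes name FastQC, cutadapt 2.8, STAR 2.7.2b and featureCounts of Subread 2.0.3, with the builds GRCh38.p13 and GRCm39. The annotation release and the strand setting are not given in the sources used here. The labels give 1 µM for Senexin B and were followed, while the study's text gives a different dose.

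Counts were rounded, and 2 rows that are not human genes (0 counts) were dropped. Each experiment was fitted alone over its 4 groups with edgeR 4.0.16 in R 4.3.3 (TMM sizes, low counts removed by filterByExpr at a count of 10 and a total of 15, quasi-likelihood F test, Benjamini-Hochberg over all genes tested). A call needed an adjusted p under 0.01 and a fold over 1.5. The difference of the androgen effects came from 1 fit of all 28 libraries. Standard errors and 95% intervals are Wald values from the same fits. CPM used TMM library sizes over all 28 libraries, and log2 CPM for likeness a prior count of 2. Positions, exon lengths and sequences came from GENCODE 29 on GRCh38. The scripts were tested on simulated counts.

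All 36 replicate pairs differed beyond sampling noise (lowest chi-square per degree of freedom 1.21), so no library was counted as deposited more than 1 time. Intervals are for differences between group means and rest on the spread of these libraries alone. Alternatives were DESeq2 1.42.0, other scaling, filters and fold limits, a replicate block, 1 fit of all libraries, and leaving out each library.

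The 5 genes, the related lists and the tests were chosen with earlier results of these data known. Related genes were named by rule: from each list, up to 3 called for R1881 at 24 h or 72 h and up to 3 called in any inhibitor contrast, by greatest absolute log2 fold change, with KLK3 and TMPRSS2 as controls and the 3 most alike genes for each of the 5. A few genes these rules would name are not reported here.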

Additional observations from a re-analysis of the deposited data

Results flagged for a closer look

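The effect of R1881 on TMEFF2 differed with and without a Mediator kinase inhibitor, by a test of the difference itself in each experiment. The log2 difference was -1.13 at 24 h with Senexin B (n = 3 per group, edgeR adjusted p = 2.05e-11) and -1.13 at 72 h with SNX631 (n = 4 per group, edgeR adjusted p = 1.11e-13).

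The effect of R1881 on TMEFF2 also differed between the experiments, by -0.53 log2 units for 72 h minus 24 h (edgeR adjusted p = 5.28e-05), where androgen dose and time changed together.

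No library of the 20 groups of 4 formed by the 5 genes at 72 h stood far enough from the others to be an outlier by Dixon's criterion, and chance alone would mark about 1 in 20. Groups of 3 were not tested.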

How the results depend on the processing

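PSCA rests on 17 to 97 counts per library. The sign of changes near 0 depended on scaling and on single libraries, and the cause was not tested.

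Without the fold limit, the genes called over the 11 comparisons, in the order R1881, R1881 with Senexin B, Senexin B, Senexin B with R1881 and interaction at 24 h, then the same with SNX631 at 72 h, then the difference between experiments, numbered 7716, 7580, 4009, 3622, 334, 8397, 9217, 4321, 5326, 1140 and 1257. Of the 5 genes, 3 then passed for Senexin B, 2 for Senexin B with R1881, 3 for R1881 with SNX631, 2 for SNX631, 3 for SNX631 with R1881 and 1 for the difference. Of the 53 related genes, 34, 32, 25, 24 and 2 passed at 24 h, and 36, 35, 30, 29 and 11 at 72 h. The related genes were recomputed under these settings by a choice made after seeing the data.

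With library totals in place of TMM, the median log2 change of all genes moved from -0.014 to -0.116 for R1881 at 72 h and from -0.014 to -0.122 for R1881 with SNX631. R1881 with SNX631 then called 2 of the 5 genes, with PSCA at -0.67 (adjusted p = 0.00366), and SNX631 with R1881 called 5 related genes. CD276 turned to -0.060 for R1881 at 24 h and to -0.093 for R1881 with SNX631. The latter passed the limit on adjusted p (edgeR adjusted p = 0.00387) but not on fold, and it is above the moved median. EPCAM turned to -0.016 for Senexin B, -0.012 for SNX631 with R1881 and -0.015 for the difference between experiments. The share of calls that were higher went from 48.9% to 38% for R1881 at 72 h. With a minimum count of 50, R1881 at 24 h called 10 related genes, SNX631 with R1881 called 0 of the 4 genes still tested, since PSCA was removed, and CD276 was at -0.0010 for R1881 at 24 h and -0.012 for R1881 with SNX631. With no filter, CD276 was at 0.000635 for R1881 at 72 h.

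Leaving out each library in turn changed the sign of values near 0: CD276 for R1881 with Senexin B ranged from -0.035 to 0.015, PSCA for Senexin B from -0.017 to 0.190, FOLH1 in the 24 h interaction from -0.022 to 0.035, CD276 for R1881 with SNX631 from -0.018 to 0.032, PSCA for SNX631 from -0.161 to 0.075, EPCAM for SNX631 with R1881 from -0.0014 to 0.044, and EPCAM in the difference between experiments from -0.0090 to 0.033. The 5 genes called ranged from 1 to 2 for the 72 h interaction (PSCA, without R1881 replicate 3) and from 0 to 1 for the difference between experiments (TMEFF2, without vehicle replicate 3 of 24 h or of 72 h), and the related genes called for Senexin B from 3 (without vehicle replicate 3) to 5.

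The groups share replicate numbers, but same-numbered libraries did not deviate together over all genes (correlations of -0.022 to 0.068 at 24 h and -0.055 to 0.062 at 72 h). The main fits therefore used no pairing. These correlations cannot show whether same-numbered cultures were handled together. With a replicate block, the interaction of TMEFF2 was -1.15 at 24 h and -1.13 at 72 h, PSCA for SNX631 with R1881 was -0.93, and the calls for R1881 numbered 3022 and 3173 genes. The block, DESeq2's size factors and Wald test, and 1 fit of all libraries left the number of the 5 genes called the same in every comparison they could be fitted for.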
